A study of Mus musculus with 4 samples.

Results

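The genes of antigen presentation by major histocompatibility complex (MHC) class II were examined in mouse tumors with and without knockdown of Taz. They were taken by symbol from the deposited expression table. The symbols were the class II chain genes H2-Aa, H2-Ab1 and H2-Eb1, the peptide exchange genes H2-DMa, H2-DMb1 and H2-DMb2, the invariant chain gene Cd74, the transactivator gene Ciita and the costimulatory ligand genes Cd80 and Cd86. All 10 were found among the 15424 genes listed. R728T1 cells, which the labels call non-SMCs (a term left unexplained there) from an Rb and P53 mouse model and class as small cell lung cancer, had been grown as subcutaneous tumors. The hosts were nude mice, which have no mature T cells. One group expressed a luciferase shRNA as control (shLuc) and the other a Taz shRNA (shTaz), with 2 labelled samples in each. The strain, sex and age of the hosts, and whether the R728T1 cells are 1 clone, are not given in the sources used here.

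Each group has 1 column of FPKM, a fragment count scaled by transcript length and by all mapped fragments. A column is the authors' value for its group, and nothing states whether the samples were averaged, estimated jointly or represented by 1 library. There is no spread between replicates, so no difference below has a test, and neighbouring levels cannot be said to differ beyond error. Column totals were 501728 FPKM for shLuc, called the control column below, and 427921 FPKM for shTaz, the knockdown column. The read depth is unknown. Wwtr1, the gene of the TAZ coactivator, stood at 23.4 FPKM under control and 15.1 FPKM under knockdown. Against the label of small cell lung cancer, the neuroendocrine genes Neurod1, Chga and Calca were not listed and Syp and Insm1 lay under 1 FPKM, while Ncam1 was at 39.8 and 43.8 FPKM and Uchl1 at 10.1 and 1.51 FPKM.

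MHC class II molecules are pairs of an alpha and a beta chain that carry peptides from the endosome to the cell surface and show them to CD4 T cells. Dendritic cells, B cells and some macrophages make them without prompting, and many other cells make them after exposure to interferon gamma, through the coactivator CIITA. CIITA binds no DNA itself and acts on factors assembled at X and Y boxes close to the start of class II genes. In the endosome the invariant chain fills the peptide groove, proteases trim it to a remnant called CLIP, and the H2-DM heterodimer exchanges CLIP for other peptides. CD80 and CD86 give the T cell its second signal through CD28.

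The promoter stretches below are shown because they hold the X and Y box letters that class II genes share. RefSeq promoter windows (GRCm38.p6, the assembly called mm10) were available for 6 of the 10 genes, and the 250 bases before the start site were searched. The X box was searched as AAC, 2 or 3 bases of any kind and then TGANG, where N is any base, and the Y box, an inverted CCAAT box, as TGATTGG, 8 to 30 bases downstream and on the same strand, in both orientations. These patterns were written after the windows of the genes had been read, so that the matches are a description. Capitals mark both patterns, read 5′ to 3′ on the strand of the gene.
H2-Aa, chr17:34287852-34287917, minus strand: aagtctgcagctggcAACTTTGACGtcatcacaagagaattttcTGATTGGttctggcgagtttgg
H2-Eb1, chr17:34305763-34305827, plus strand: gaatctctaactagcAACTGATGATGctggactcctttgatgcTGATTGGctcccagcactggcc
H2-DMb2, chr17:34145113-34145178, plus strand: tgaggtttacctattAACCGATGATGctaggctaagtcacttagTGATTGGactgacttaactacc
H2-DMb1 has the same arrangement, with the X pattern beginning 92 bases and the Y box 63 bases before the RefSeq start site. It is not printed, because the GENCODE first exon of that gene covers it. The printed H2-DMb2 stretch lies before the RefSeq start site but inside the GENCODE span of its gene, 34143307 to 34151555. The X pattern began 79 bases before the start in H2-Aa, 89 in H2-Eb1 and 121 in H2-DMb2, and the gap to the Y box was 17 to 19 bases in the 4 genes. Of 32851 mouse promoter windows, 14 (0.0426%) held the pair of patterns. The 14 included 5 H2 genes, these 4 and H2-Ob. TGATTGG alone was in 7.23% of the windows and the X pattern alone in 4.68%. The letters were not in the windows of H2-DMa and Cd80. H2-Ab1, Cd74, Ciita and Cd86 had no entry.

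The class II genes were among the most abundant transcripts of these tumors, and the regulator and the costimulatory genes were near or under 1 FPKM. Cd74 was at 1151 FPKM in the control column and 1046 FPKM in the knockdown column, the 64th and 50th highest values of each column. In the control column H2-Ab1 (998 FPKM), H2-Aa (710 FPKM), H2-Eb1 (491 FPKM), H2-DMa (99.4 FPKM), H2-DMb1 (62.9 FPKM) and H2-DMb2 (41.3 FPKM) followed in that order. Cd86 (1.88 FPKM), Ciita (1.19 FPKM) and Cd80 (0.417 FPKM) were lowest. The order was the same in the knockdown column, except that H2-DMb2 stood above H2-DMb1. Cd74 exceeded Ciita 966-fold in the control column and 594-fold in the knockdown column. With Ciita near 1 FPKM and the depth unknown, no change between the columns is read from these ratios.

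**Figure D1:**
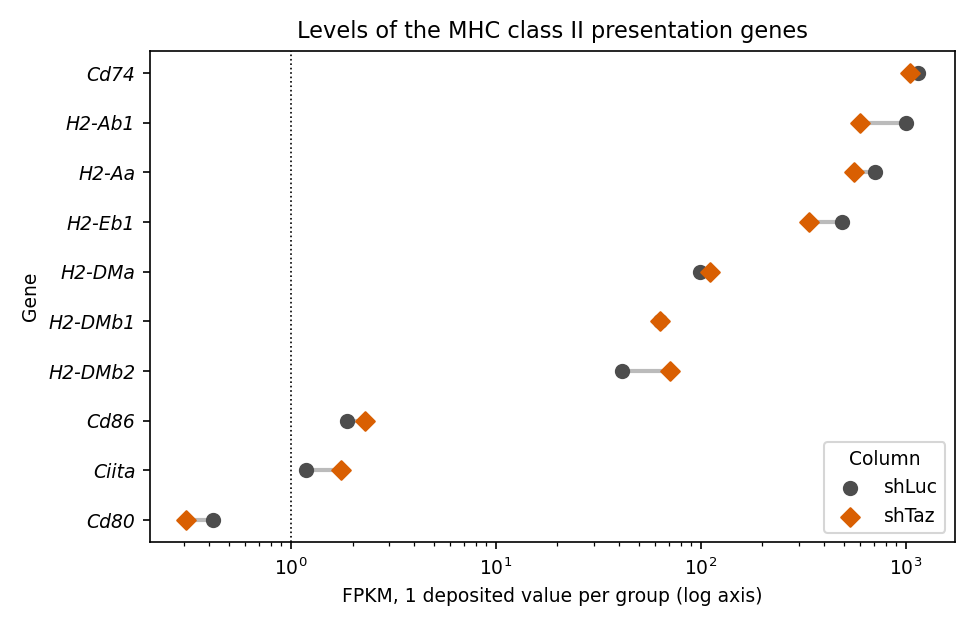
FPKM of the 10 genes on a log axis, with 1 deposited value per group (circle shLuc, diamond shTaz) and no error bars, since each group has 1 value. The dotted line marks 1 FPKM. The class II chain genes lie further left in the knockdown column, H2-DMb2 lies further right, and the levels run from under 1 FPKM for Cd80 to 1151 FPKM for Cd74 in shLuc.

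None of the 10 genes differed 2-fold between the columns. Differences are given as log2((shTaz FPKM + 1) / (shLuc FPKM + 1)), so that negative values are lower in the knockdown column and the change of genes near 1 FPKM is understated. Of the 10 genes 9 reached a mean of 1 FPKM, and Cd80 did not. None of the 9 was 2-fold higher or lower, against 7.21% of the 11650 genes with such a mean (3.96% higher, 3.25% lower). At 1.5-fold, 2 of the 9 differed, against 27.3% of all genes. H2-Ab1 was lower, as were 9.96% of all genes, and H2-DMb2 was higher, as were 17.3%. These shares are near or below the background. The median difference of the 9 genes was 0.01, beside 0.12 over all genes, with 5 above and 4 below 0. The chain genes lay below 0 and the exchange genes above it, H2-DMb1 turning to -0.12 with median-ratio scaling.

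The class II chain genes were lower in the knockdown column, all 3 of them. H2-Ab1, the I-A beta chain, was at 998 FPKM in the control column and 600.5 FPKM in the knockdown column, or 60.2% of the control value (log2 difference -0.73). H2-Eb1, the I-E beta chain, was at 491 and 336 FPKM, or 68.4% (-0.55). H2-Aa, the I-A alpha chain, was at 710 and 560 FPKM, or 78.9% (-0.34). Summed, the 3 chains were at 2199 and 1496 FPKM, or 68.0% of the control. The I-A beta chain thus stood further below its control value than its alpha partner did, and the ratio of H2-Ab1 to H2-Aa was 1.41 in the control column and 1.07 in the knockdown column. Such ratios within a column do not depend on a scaling factor per column, but they do move with base composition. The log2 difference of H2-Ab1 minus that of H2-Aa was -0.39 as deposited and -0.045 with the GC trend removed, where H2-Eb1 had the lowest difference of the chains.

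Abundant genes as a whole were lower in the knockdown column, and whether this trend with level has a part in the chain genes' values was not tested. The median difference was 0.25 over the 4332 genes with a mean of 1 to 5 FPKM, and -0.29 over the 557 genes of at least 100 FPKM. Of those 557 genes, 5.21% were 2-fold lower and 0.359% 2-fold higher, beside none of the 5 class II presentation genes at that level. At 1.5-fold 20.8% were lower, H2-Ab1 among them, and 2.51% higher. Among them 11.8% lay below H2-Ab1, 23.9% below H2-Eb1 and 44.3% below H2-Aa, so that H2-Aa was near the middle of equally abundant genes. Over all 11650 genes the shares were 6.39%, 11.1% and 19.4%.

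**Figure D2:**
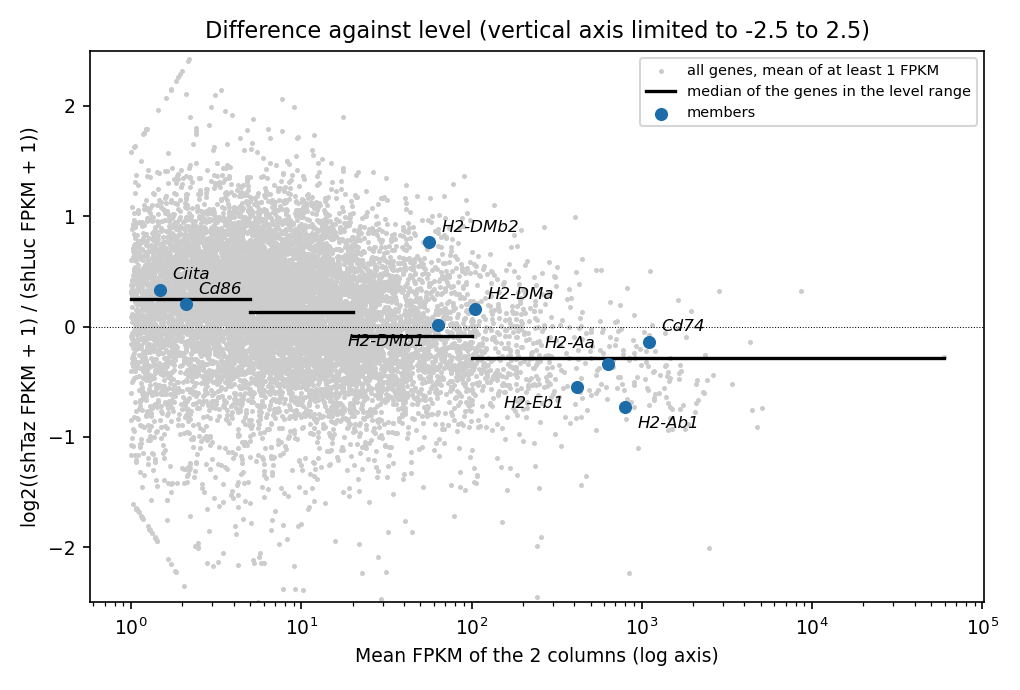
Log2 difference between the columns (vertical axis, negative is lower in shTaz) against the mean FPKM of the gene (log axis). Grey points are the genes averaging at least 1 FPKM, black lines the medians of 4 level ranges, and blue points the 9 genes that reached that mean. The medians step down from 0.25 to -0.29 with level, H2-Aa and Cd74 lie near the lowest line, H2-Ab1 and H2-Eb1 below it and H2-DMa and H2-DMb2 above the lines of their ranges.

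Base composition moved with the difference as well. Across the genes, transcripts with less GC were higher in the knockdown column, with a median of 0.52 in the lowest of 5 equal groups by GC content and -0.31 in the highest. H2-Ab1 (57.3% GC) and Cd74 (56.6%) lay in the highest group, H2-Aa (51.0%) and H2-Eb1 (51.8%) in the middle one, and Cd86 (43.2%) in the lowest. With the GC trend removed the 3 chain genes remained lower, H2-Ab1 at -0.50, H2-Eb1 at -0.62 and H2-Aa at -0.46. With the trend with transcript length removed instead, they were at -0.56, -0.50 and -0.14 in that order. With both trends removed they were at -0.32, -0.54 and -0.25. Each was below 0 in all 9 alternatives run, although the changes of filter among them cannot move a gene's own value. H2-Aa came closest to 0 after quantile normalization (-0.078).

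H2-Ea-ps, the I-E alpha gene and partner of H2-Eb1, was not among the 10 genes and is named after its values were seen. It was at 190 FPKM in the control column and 213 FPKM in the knockdown column (0.16), so that the ratio of alpha to beta chain of I-E was 0.388 and 0.634. The C57BL/6 reference annotates this gene as a pseudogene, since mice of that haplotype do not make the I-E alpha chain. Class II chains differ strongly between mouse haplotypes, and reads of another haplotype may map less well to the reference. Whether this touched the levels given here was not tested.

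The invariant chain gene Cd74 was nearly level. It was at 1151 FPKM in the control column and 1046 FPKM in the knockdown column, or 90.9% (-0.14), and 62.8% of the 557 abundant genes lay lower. Its sign depended on the scaling, with 0.26 after quantile normalization and 0.049 with the GC trend removed. The ratio of summed chains to Cd74 was 1.91 in the control column and 1.43 in the knockdown column.

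The peptide exchange genes were not lower with the chains. H2-DMa, the alpha chain of the H2-DM heterodimer, was at 99.4 FPKM in the control column and 111 FPKM in the knockdown column (0.16), and 84.2% of the 557 abundant genes lay below it. H2-DMb1, a beta chain, was at 62.9 and 63.4 FPKM (0.01). H2-DMb2, the other beta chain, was at 41.3 and 70.8 FPKM (0.76), which 90.0% of all genes lay below. H2-DMa was above 0 in each of the 9 alternatives and H2-DMb2 in each of the 8 that could give it a value. The changes of filter among these could not move a value. H2-DMb1 turned to -0.12 with median-ratio scaling. The ratio of H2-DMa to the summed class II chains was 0.0452 in the control column and 0.0742 in the knockdown column.

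H2-DMb1 and H2-DMb2 are near-identical neighbours, and the split of reads between them is uncertain. Their coding sequences of 786 bases each (GENCODE M21) were identical at 754 positions (95.9%), with the longest identical run 221 bases. Of the 50-base words in the H2-DMb1 transcript, 27.2% were also found in another gene, and of those of H2-DMb2 31.3%. None of the 50-base words of the other 8 genes was found in another gene. The stretch of 60 coding bases that differs most, bases 208 to 267 of both, is shown as a place where reads can tell the genes apart. It is not the only such place, since most 50-base words of each transcript were not shared. Capitals mark the 17 bases that differ.
H2-DMb1: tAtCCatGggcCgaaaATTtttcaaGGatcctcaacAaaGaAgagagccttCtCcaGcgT
H2-DMb2: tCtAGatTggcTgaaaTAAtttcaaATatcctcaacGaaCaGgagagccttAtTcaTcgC
H2-DMb2 also shared words with Zw10 and 1700055D18Rik. A sum does not depend on the split within the pair if each shared read was counted once, which is not stated. Summed, the beta chains were at 104 FPKM in the control column and 134 FPKM in the knockdown column (0.36). The ratio of summed H2-DMb to H2-DMa was 1.05 and 1.21.

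Most of these genes lie in the class II region of chromosome 17, given here in mm10 positions of GENCODE M21 counted from 1. H2-DMa (Entrez 14998) spans 34119541 to 34139101, H2-DMb2 (15000) 34143307 to 34151555 and H2-DMb1 (14999) 34153072 to 34160230, all on the plus strand. H2-Ab1 (14961) spans 34257689 to 34269419 on the plus strand, H2-Aa (14960) 34282744 to 34287823 on the minus strand and H2-Eb1 (14969) 34305867 to 34316674 on the plus strand. Ciita (12265, 10480059 to 10528418, plus strand), Cd86 (12524, 36603869 to 36666081, minus strand) and Cd80 (12519, 38455561 to 38496335, plus strand) lie on chromosome 16. The 13 genes of the region from H2-Oa to H2-Ea-ps averaging at least 1 FPKM were set out in order, a choice made after the values were seen. Of these, 5 were above 0 and 8 below. Over all genes the share below 0 ran from 31.6% at 1 to 5 FPKM to 74.7% at 100 FPKM or more. Between the H2-DM genes and the chain genes lie Psmb9, Tap1, Psmb8 and Tap2 of the class I pathway, with differences of -0.28, -0.45, -0.36 and -0.46. With the GC trend removed these were -0.17, -0.22, -0.22 and -0.25.

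**Figure D3:**
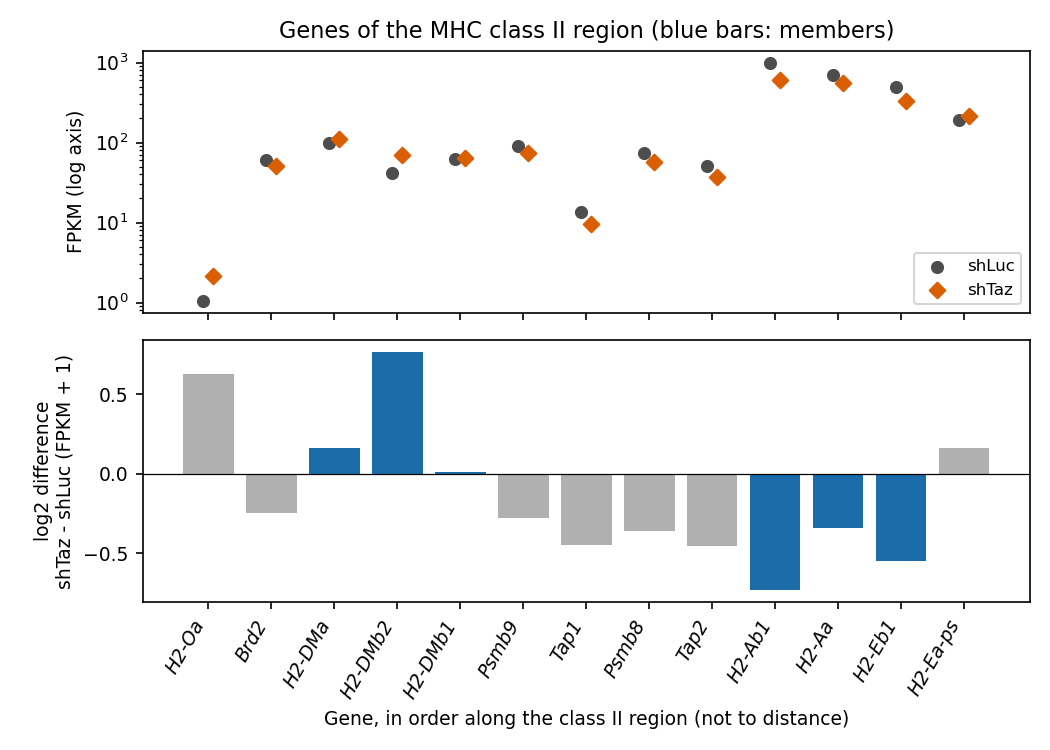
FPKM on a log axis (top, circle shLuc, diamond shTaz) and log2 difference (bottom, negative is lower in shTaz) of the genes of the class II region averaging at least 1 FPKM, in their order on chromosome 17 and not to distance. Blue bars are the class II presentation genes. The H2-DM genes lie at or above 0 and the run from Psmb9 to H2-Eb1 lies below 0, down to -0.73 for H2-Ab1. Psmb9, Tap1, Psmb8 and Tap2 move to between -0.25 and -0.17 with the GC trend removed. H2-DMb1 turns to -0.12 with median-ratio scaling.

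Ciita, the gene of the class II coactivator, was low and not lower in the knockdown column. It was at 1.19 FPKM in the control column and 1.76 FPKM in the knockdown column (0.33), and 66.1% of all genes lay below it. The median of genes with a mean of 1 to 5 FPKM was 0.25. Ciita was above 0 in all 7 alternatives that could give it a value, of which dropping the filter could not move it. The values ran from 0.036 with the length trend removed to 0.53 with a pseudocount of 0.1. At a level near 1 FPKM and with the depth unknown, no contrast with the chain genes is read from Ciita.

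The other genes of the class II promoter complex showed no common direction. Of 8 genes, Ciita included, 1 was 2-fold higher and none 2-fold lower, beside 3.96% and 3.25% of all genes. The 2-fold higher gene was Nfyb, a subunit of the CCAAT-binding factor NF-Y, at 2.87 FPKM in the control column and 6.95 FPKM in the knockdown column (1.04, or 0.48 with the GC trend removed). Its partner subunits were at 10.6 and 15.8 FPKM for Nfya and 18.04 and 14.9 FPKM for Nfyc. Of the RFX complex, which binds the X box, Rfx5 was at 2.25 FPKM in both columns, Rfxap at 9.88 and 10.6 FPKM and Rfxank at 9.60 and 6.30 FPKM. Creb1, another X box factor, stood at 1.54 and 2.43 FPKM. The 8 genes had a median of 0.21, which turned to -0.086 with the GC trend removed.

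Of the interferon gamma route to Ciita, the ligand gene Ifng was not listed. The receptor genes Ifngr1 (24.4 FPKM in the control column, 28.8 FPKM in the knockdown column) and Ifngr2 (24.8 and 31.0 FPKM) were slightly higher in the knockdown column. With the GC trend removed Ifngr1 turned to -0.029 and Ifngr2 moved from 0.31 to 0.12. Downstream, the kinase genes Jak1 (7.88 and 11.4 FPKM) and Jak2 (2.08 and 3.85 FPKM) were higher. Without the GC trend Jak1 moved from 0.48 to 0.18 and Jak2 from 0.65 to 0.21. Irf1, which acts at the Ciita promoter, was at 18.5 and 15.6 FPKM. Socs1, the inhibitor of this signal, was 2-fold lower, as were 3.25% of all genes, at 11.4 and 4.74 FPKM (-1.11, or -0.80 with the GC trend removed).

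Of the endosomal processing genes, 5 of 6 lay above 0 and Ctsd lay below it with the class II chains. None of the 6 measured genes of antigen processing was 2-fold different, beside 7.21% of all genes. Ctss, cathepsin S, which makes the last cut of the invariant chain in antigen-presenting cells, was at 270 FPKM in the control column and 537 FPKM in the knockdown column (0.99, just under 2-fold, or 0.62 with the GC trend removed). The ratio of Ctss to Cd74 was 0.234 and 0.513. Ctsl was at 40.4 and 61.0 FPKM (0.58, or 0.14 with the GC trend removed) and Ctsb at 113 and 149 FPKM (0.39, or 0.17). Lgmn, the asparagine endopeptidase, was at 207 and 233 FPKM (0.17, or 0.10), and Ifi30, a thiol reductase that opens disulfide bonds of antigens, at 179 and 208 FPKM. Ctsd was lower, at 621 and 473 FPKM (-0.39, or -0.24). The median of the 6 genes was 0.30, and 0.16 with the GC trend removed. Over the 5 that averaged at least 100 FPKM it was 0.22, beside -0.29 for all genes at that level. H2-Oa, an inhibitor of H2-DM, was at 1.05 and 2.17 FPKM, and H2-Ob at 1.01 and 0.852 FPKM. Marchf1, the ubiquitin ligase of surface class II, was not matched and so not analysed here. The symbols of 23 genes had been turned into dates, and whether Marchf1 is among them was not tested.

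The costimulatory ligands were barely detected. Cd80 was at 0.417 FPKM in the control column and 0.310 FPKM in the knockdown column, under the floor of 1 FPKM in both. Cd86 was at 1.88 and 2.31 FPKM (0.20), and it turned to -0.28 with the GC trend removed. With the depth unknown, no direction is read from either. Of 6 genes of the wider costimulation list that reached a mean of 1 FPKM, 1 was 2-fold lower and none 2-fold higher, beside 3.25% and 3.96% of all genes. It was Cd40, the receptor through which T cells license presenting cells, at 6.23 and 1.58 FPKM (-1.49, or -1.73 with the GC trend removed). Icosl (10.5 and 12.6 FPKM), Cd83 (6.72 and 8.27 FPKM), Tnfsf9 (7.23 and 8.71 FPKM) and Cd274, or PD-L1 (0.889 and 1.67 FPKM), were above 0, Cd274 moving from 0.50 to 0.077 with the GC trend removed. Of the genes of the T cell side, Lag3, a class II receptor, was the highest, at 5.37 and 4.72 FPKM (-0.16, or 0.21 with the GC trend removed). The others were lower, with Cd28 at 0.0575 and 0.0556 FPKM, Cd3e at 0.274 FPKM and listed at 0, and Ctla4 not listed. Cd4, which some macrophages and dendritic cells also express, was at 1.82 and 1.15 FPKM.

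**Figure D4:**
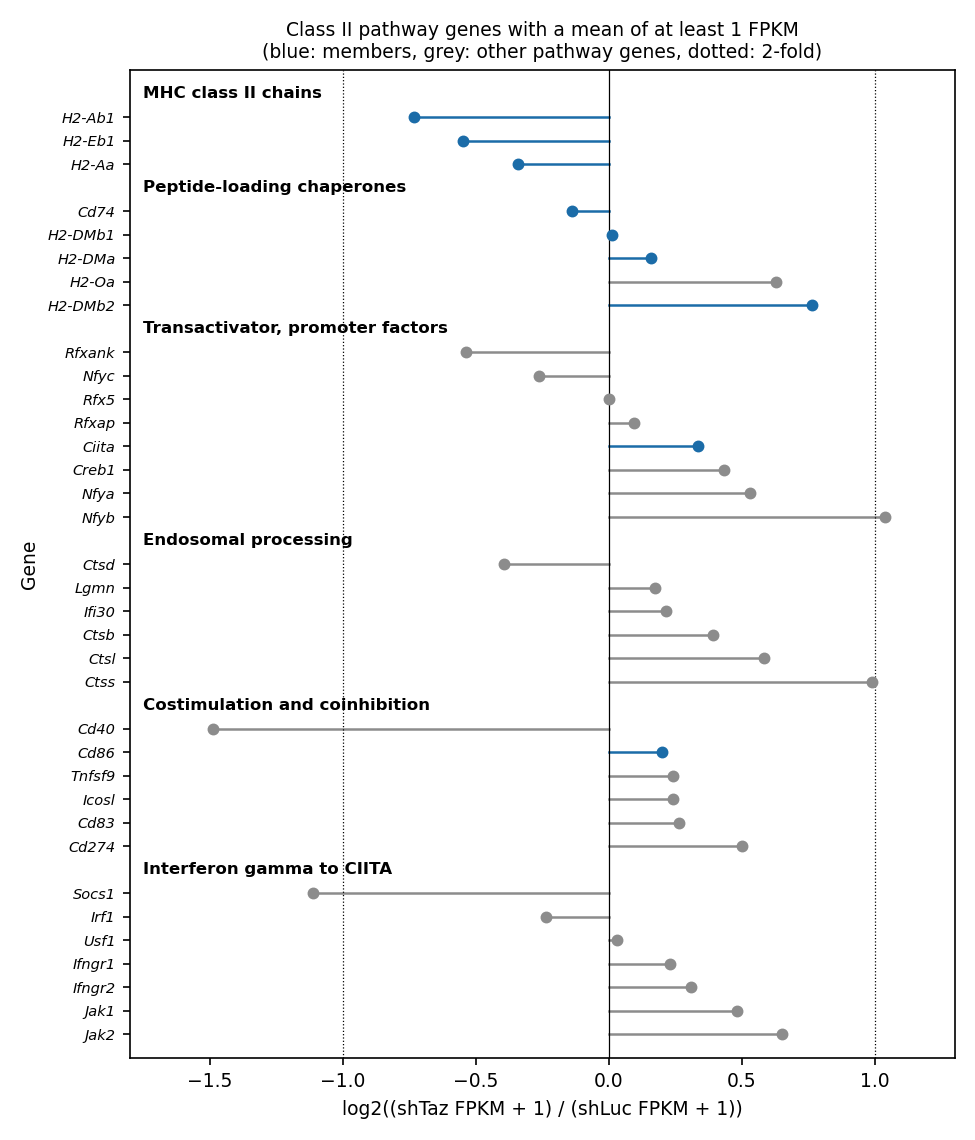
Log2 difference between the columns (negative is lower in shTaz) of class II pathway genes averaging at least 1 FPKM, by role, with 1 gene of the lists not shown. Blue marks the genes of the opening list, grey the other pathway genes, and dotted lines 2-fold. The 3 chain genes lie below 0, while 5 of 6 processing genes lie above it. Cd40 (-1.49), Socs1 (-1.11) and Nfyb (1.04) pass 2-fold. With the GC trend removed Nfyb (0.48) and Socs1 (-0.80) do not, Cd86, Creb1, Ifngr1 and Rfxap turn negative and Cd74 turns positive.

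Markers of the cells that could make class II were compared, since these are bulk tumors in which fewer cells of a type and less RNA per cell cannot be told apart. All 15 macrophage markers were listed, and their summed FPKM was 5338 in the control column and 5204 in the knockdown column. Among them C1qa, a complement gene, stood at 1868 and 1470 FPKM, C1qc at 1289 and 1107 FPKM and the receptor kinase gene Mertk at 0.969 and 3.22 FPKM. The list median was 0.34, with 9 genes above 0 and 6 below. With the GC trend removed it was 0.19, with 12 above and 3 below. C1qa was then at 0.00065, C1qc at 0.022 and Mertk at 0.82. The ratio of summed class II chains to each macrophage marker was lower in the knockdown column for 15 of 15 markers, at 0.205 to 0.864 of the control ratio (median 0.534). These ratios share the chains as numerator, and 86.8% of all 11650 genes in the place of the marker gave a lower ratio too. Relative to C1qa, the highest of them, the chains were at 1.18 and 1.02. For the pan-leukocyte markers the ratio was lower for 7 of 7 (0.253 to 0.901, median 0.623), beside the same 86.8%. Neither count is particular to the markers.

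Other presenting cells left little signal. The B cell markers Ms4a1, Pax5 and Cr2 were not listed, and Cd79a and Cd79b summed to 1.79 and 0.296 FPKM. Of 12 dendritic cell markers 6 reached a mean of 1 FPKM, with the summed level 33.9 and 49.8 FPKM, while Flt3 and Clec9a were listed at 0 in the knockdown column and under 1 FPKM in the control column. Irf8, which macrophages share, was the highest of them, at 14.2 and 25.8 FPKM, followed by Cd24a at 6.72 and 12.1 FPKM (0.76, or 0.27 with the GC trend removed). The other 10 dendritic cell markers summed to 13.0 and 11.8 FPKM, so that Irf8 and Cd24a carried the higher sum. Of the 6 that reached the mean, 4 lay above 0 and 2 below. The 4 include Itgax at 0.0026, which turned to -0.077 with the GC trend removed. The 2 below were Zbtb46 (1.53 and 0.771 FPKM) and Ccr7 (1.87 and 0.672 FPKM). The neutrophil markers summed to 5.77 and 56.04 FPKM, with Ly6g not listed. S100a9 (0.810 and 29.2 FPKM) and S100a8 (listed at 0 and at 18.6 FPKM) carried most of this, and the other 3 listed markers summed to 4.96 and 8.24 FPKM. The part of these cell types in the class II differences was not tested. Of 8 class I genes averaging at least 1 FPKM none was 2-fold different, beside 7.21% of all genes, and 7 lay below 0. The gene above 0 was B2m, at 558 and 577 FPKM (0.049, or -0.50 with the GC trend removed). Tapbp turned from -0.15 to 0.071 with the GC trend removed. Of all genes, 74.7% lay below 0 at 100 FPKM or more, 57.8% at 20 to 100 FPKM and 39.4% at 5 to 20 FPKM. H2-K1 was at 315 and 252 FPKM (-0.32, or -0.15 with the GC trend removed) and H2-D1 at 745 and 602 FPKM (-0.31, or -0.16). The ratio of summed class II chains to these class I heavy chains was 2.07 in the control column and 1.75 in the knockdown column.

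**Figure D5:**
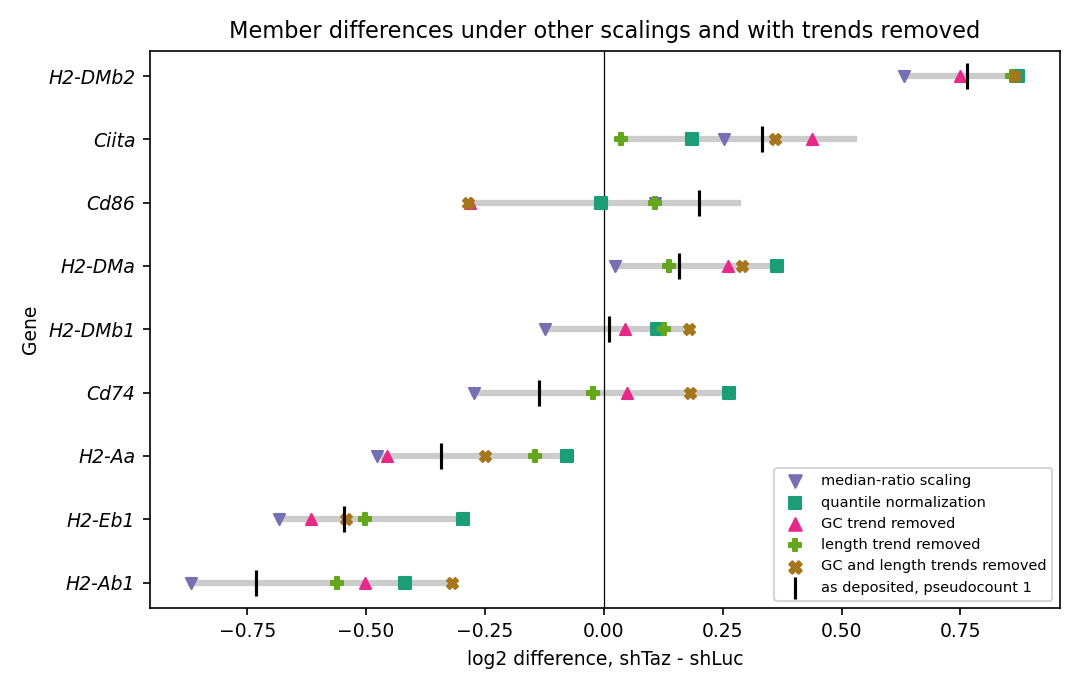
Log2 difference of the 9 genes averaging at least 1 FPKM (negative is lower in shTaz) as deposited (black tick) and under other scalings or with trends removed (coloured symbols). Grey bars span all alternatives run, including a smaller pseudocount and other filters, of which only the filters leave a gene's own value as it is. The smaller pseudocount, drawn without a symbol, sets the right ends of the bars of Ciita (0.53) and Cd86 (0.28). The chain genes H2-Aa, H2-Ab1 and H2-Eb1 stay below 0 and H2-DMa, H2-DMb2 and Ciita above it in these settings, while the bars of Cd74, Cd86 and H2-DMb1 cross 0.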

How the data were processed

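RNA sequencing of 4 tumor samples, 2 per group, was deposited as 1 table with 1 FPKM column per group. Reads were handled with Trim Galore and TopHat on mm10, per the submitters' processing notes. The versions, the FPKM program, the annotation and the strand setting are not given in the sources used here. The authors' FPKM values were used without further scaling. Each column heading matches a label carried by both samples of its group. The depth is unknown, so no counting interval is given. FPKM leaves biases from base composition uncorrected and moves when abundant RNAs take more of the reads.

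The genes, lists and tests were chosen with earlier results of these data known. The planned limma test was not possible with 1 column per group, and no test was run. Differences are log2(FPKM + 1) of shTaz minus shLuc for the 11650 genes averaging at least 1 FPKM, and 1 unit of it is called 2-fold. The 10 genes of the opening and any measured gene of the pathway lists could be named, and of each marker list the 2 most abundant and the most different gene. Markers not listed, listed at 0 or under 1 FPKM that define a cell type were named besides, outside that rule and with their values in view. Itgax, Zbtb46 and Ccr7 were named in the same way. H2-Ea-ps and the gene order of the class II region were picked with their values in view. Symbols were matched directly or through the Entrez identifiers of RefSeq. The longest protein-coding GENCODE M21 transcript gave length and GC content, for 95.1% of genes and all 10 members. Trends were removed by lowess (span 0.3, statsmodels 0.14.6). Alternatives were a pseudocount of 0.1, other filters, median-ratio scaling, quantile normalization, 1.5-fold and the removal of trends. Removal of both trends, a mean of at least 100 FPKM and, for Cd80, a pseudocount of 0.1 without a filter were chosen after seeing the data. The procedures were tested on simulated data. Values of 3 genes of the lists are not reported here, though the genes stay in the list counts.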

Additional observations from a re-analysis of the deposited data

How the results depend on the processing

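No paired analysis was possible because the table holds 1 column per group and no value per sample, and for the same reason no replicate could be left out. None of the 10 genes was 2-fold different in the settings run, Cd80 (-0.34 with a pseudocount of 0.1) included, and a threshold of 1.5-fold called 1 higher and 1 lower. The sign turned for H2-DMb1 with median-ratio scaling (-0.12), for Cd74 with quantile normalization (0.26), the GC trend removed (0.049) and both trends removed (0.18), and for Cd86 in the same 3 settings (-0.0069, -0.28 and -0.29). The medians that follow are relative to the median of all genes, which lay between -0.29 and 0.13 across settings. The median of the 9 genes was -0.11 and turned to 0.090 under quantile normalization, 0.046 without the GC trend, 0.040 without the length trend and 0.18 without either. That of the 3 chain genes was -0.66, and it was -0.32 with quantile normalization or both trends removed and -0.26 against genes of at least 100 FPKM. That of the H2-DM genes was 0.04, and 0.34 under quantile normalization, 0.26 without the GC trend, 0.29 without either and 0.45 (H2-DMa alone) against genes of at least 100 FPKM. The promoter factors were at 0.10 and turned to -0.11 among genes of at least 5 FPKM, -0.085 without the GC trend and -0.10 without either. Endosomal processing was at 0.19, and 0.49 with quantile normalization and 0.50 against genes of at least 100 FPKM. A median that moved by under 0.2 was counted as unmoved. The causes of these shifts were not tested. The ratios within a column kept their direction with 0.1 added to both values. So small an addition can hardly move a ratio of abundant genes, and it is no check of those. With the GC trend removed, the log2 difference of H2-Ab1 minus that of H2-Aa moved from -0.39 to -0.045. The filters at 5 and 100 FPKM gave no value for the genes under them, and no filter setting changed the difference of a gene that it kept. The unknown depth limits Ciita, Cd80 and Cd86 most.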
